A study of Mus musculus with 12 samples.

Results

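The difference between palbociclib, an inhibitor of the cyclin-dependent kinases CDK4 and CDK6, and ruxolitinib, an inhibitor of the Janus kinases JAK1 and JAK2, was examined gene by gene in mouse blood stem and progenitor cells. The cells were lineage-depleted bone marrow sorted as LSK, the fraction without lineage markers that carries Sca-1 and Kit, from transplanted C57BL/6 mice whose genotype is labelled Homozygous JAK2V617F, an activating kinase mutation of myeloproliferative neoplasms. All groups, vehicle included, carry that genotype, and polyA RNA from 3 libraries each of vehicle, palbociclib and ruxolitinib entered the comparison. The labels give no dose, duration or age and do not tie libraries to single animals or say which cells of the host remained. The p-values rest on the authors' fit of 24 libraries, 12 of them outside this series, whose groups share a spread per gene. The spread of these 9 libraries alone was not measured, and the shared spread may be technical. A 4th group of 3 libraries received both drugs and is quoted only beside single genes.

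The value for each gene was the log2 fold change of palbociclib over vehicle minus that of ruxolitinib over vehicle, both from the authors' deposited tables, so that the vehicle level cancels and a positive value means a higher level under palbociclib. Of 55487 genes in the tables, 12095 had a base mean, the mean normalised read count over the authors' libraries, of at least 50. The 156 genes among them with symbols beginning Igh, Igk or Igl were left out, which left 11939 genes, and 11933 of these had an adjusted p in both tables. Zg16 and Epx, the latter with a base mean of 49.98, lay just outside the limit and Pcdhb22, with 50.15, just inside it.

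CDK4 and CDK6 pair with D-type cyclins and phosphorylate the retinoblastoma protein RB, which frees E2F factors to drive S phase genes, while the RB relatives p107 and p130 hold G2/M genes silent in a complex that binds the CHR promoter element. JAK1 and JAK2 sit on cytokine receptors such as those for erythropoietin and granulocyte colony-stimulating factor, and signal through STAT factors, which also switch on SOCS genes that damp the pathway. In the stem and progenitor compartment both routes bear on how often a cell divides and on which lineage it enters.

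The list of G2/M and mitosis genes was the one in which every member lay on the same side of 0, and the promoters of its 4 members with the smallest p are shown because that list is known for a shared promoter code. The sequences are RefSeq promoters on GRCm38.p6 of 300 bases, from 250 before to 50 after the start of the gene, printed 5′ to 3′ on the strand of the gene. Capitals mark the CHR element (TTTGAA, or TTCAAA on the other strand) and the CCAAT box (CCAAT, or ATTGG on the other strand). Nek2, a centrosome kinase, lies at chr1:191821223-191821522 on the plus strand, and Cdc20, an activator of the anaphase-promoting complex, at chr4:118437294-118437593 on the minus strand. Kif22, a chromosome-arm kinesin, lies at chr7:127042371-127042670 on the minus strand, and Kif15, a spindle kinesin, at chr9:122950831-122951130 on the plus strand.
Nek2: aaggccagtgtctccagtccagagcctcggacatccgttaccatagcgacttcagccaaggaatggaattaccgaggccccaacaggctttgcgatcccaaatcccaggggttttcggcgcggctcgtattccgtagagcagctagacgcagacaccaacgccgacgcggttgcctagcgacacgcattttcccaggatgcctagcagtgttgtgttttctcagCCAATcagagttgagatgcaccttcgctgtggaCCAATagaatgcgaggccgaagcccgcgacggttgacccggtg
Cdc20: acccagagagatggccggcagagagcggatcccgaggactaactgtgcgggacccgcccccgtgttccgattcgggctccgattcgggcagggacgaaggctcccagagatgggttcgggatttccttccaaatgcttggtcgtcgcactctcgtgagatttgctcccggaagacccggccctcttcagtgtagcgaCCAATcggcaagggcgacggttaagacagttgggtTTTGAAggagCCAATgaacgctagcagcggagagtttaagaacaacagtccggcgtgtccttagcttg
Kif22: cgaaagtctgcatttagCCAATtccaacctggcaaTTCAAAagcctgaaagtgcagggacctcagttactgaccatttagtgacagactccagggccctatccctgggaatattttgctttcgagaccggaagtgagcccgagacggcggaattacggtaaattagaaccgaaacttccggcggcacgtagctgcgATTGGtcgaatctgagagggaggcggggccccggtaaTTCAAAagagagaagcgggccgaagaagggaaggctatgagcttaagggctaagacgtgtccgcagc
Kif15: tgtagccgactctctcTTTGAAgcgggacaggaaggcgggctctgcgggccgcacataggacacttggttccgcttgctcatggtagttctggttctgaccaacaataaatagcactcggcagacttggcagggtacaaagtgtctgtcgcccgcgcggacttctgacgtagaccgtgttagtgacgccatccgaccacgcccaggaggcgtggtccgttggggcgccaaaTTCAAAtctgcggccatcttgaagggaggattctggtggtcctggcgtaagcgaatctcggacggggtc
The Cdc20 window held 1 CHR element and 2 CCAAT boxes, and the Kif22 window held 2 of each. The Nek2 window held 2 CCAAT boxes and 0 CHR elements, and the Kif15 window 2 CHR elements and 0 CCAAT boxes.

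Promoters were found by symbol for 9263 of the genes, and both strands were searched. The CHR letters stood in 43 of the 59 G2/M promoters found (72.9%), against 12.1% of all 9263 and 11.1% of the S phase promoters. CCAAT stood in 71.2% of the G2/M and 39.4% of all promoters, and both together in 61% and 5.15%. The E2F letters TTTCCCGC stood in 17.8% of the S phase promoters and 2.28% of all. The STAT letters TTCNNNGAA, in which N is any base, stood in 3 of the 16 promoters found for the STAT5 and SOCS list (18.8%) and in 6.87% of all. Among genes called by the direct contrast defined below, promoters were found for 17 higher under ruxolitinib and 64 higher under palbociclib. The CHR letters stood in 2 (11.8%) and 10 (15.6%) of these, and CCAAT in 35.3% and 35.9%. The E2F letters stood in 0 of either set and the STAT letters in 5.88% and 6.25%. The shares of the G2/M list therefore do not describe the called genes. A match describes these windows and is no evidence of binding.

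Across the 11939 genes the median difference was -0.0048 on the log2 scale, with 5882 genes above 0 and 6057 below. Both tests described next compare the difference with its error, 2-sided, adjusted by Benjamini-Hochberg over all 15448 genes tested in both tables, and call a gene at an adjusted p under 0.05. The conservative test takes the root of both squared deposited errors, which counts the shared vehicle libraries as noise. It called 5 genes higher under palbociclib, 0.0419% of those tested, and 5 higher under ruxolitinib, also 0.0419%. The direct contrast, an alternative, removes the vehicle variance, which was solved for each gene from the deposited errors. It called 79 genes higher under palbociclib (0.662%) and 24 higher under ruxolitinib (0.201%), among them all 10 of the conservative calls. Errors after ± are standard errors of the direct contrast unless the conservative test or a deposited table is named.

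**Figure D1:**
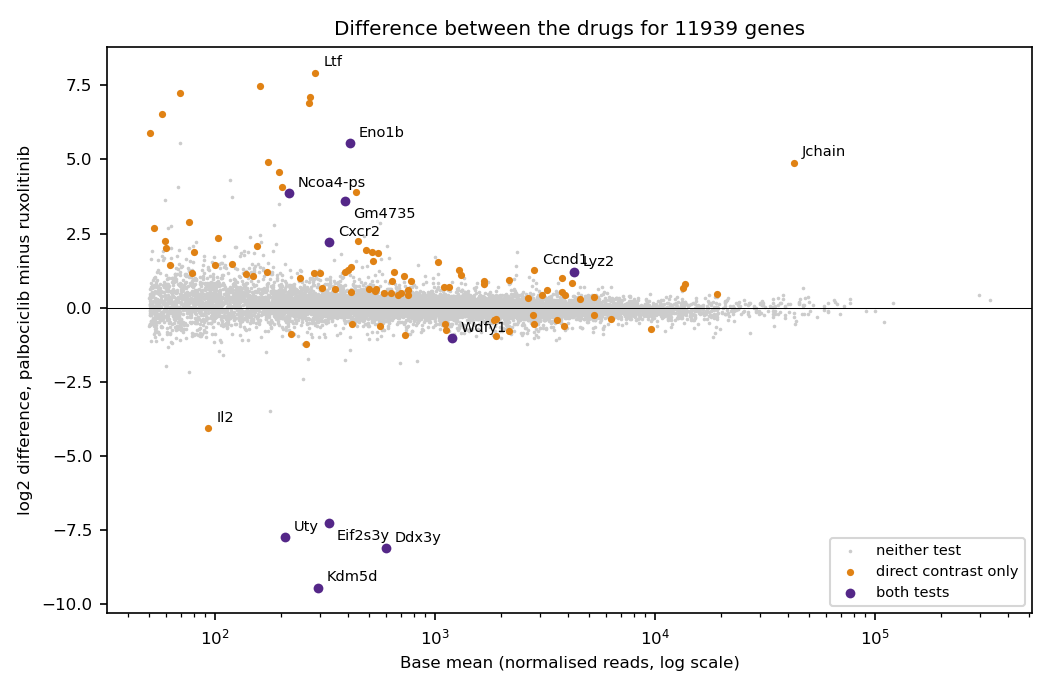
Difference between the drugs on the log2 scale (vertical) against base mean in normalised reads (horizontal, log scale) for the 11939 genes, 1 point per gene, coloured by which test called it. The calls above 0 reach 7.93 at Ltf and those below 0 reach -9.46 at Kdm5d, while most genes lie close to 0 at every level.

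Of the 103 genes called by the direct contrast, 95 were protein-coding. By the authors' deposited tables, 63 of them passed for palbociclib only, 10 for ruxolitinib only, 0 for both and 30 for neither drug. The differences exceeded 2-fold for 48 of the 79 genes higher under palbociclib and for 7 of the 24 higher under ruxolitinib. At an unadjusted p under 0.05 the conservative test counted 197 and 108 genes, and the direct contrast 700 and 531. For 9895 genes (82.9%) the 95% interval of the direct contrast lay within a 2-fold difference either way, and for 8791 (73.6%) that of the conservative test did.

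Against vehicle, in the authors' deposited tables, 5.05% of the genes rose and 4.46% fell under palbociclib, and 1.06% rose and 2.3% fell under ruxolitinib. Values per library were not used here, so the levels below are group levels in normalised reads solved from the deposited base means, folds and errors, and their 95% intervals come from the same model. Reads in genes implied by the tables were 31.5 to 34.8 M a library for vehicle, 25.1 to 30.1 M for palbociclib and 21.4 to 34.1 M for ruxolitinib, where M is 1e+06 reads. Of the transcripts that mark the sorted population, none passed: the differences were 0.054 for Kit (-0.44 to 0.55, conservative 95% interval), -0.0052 for Cd34 (-0.51 to 0.49) and 0.11 for Ptprc (-0.27 to 0.48). Ly6a, which encodes Sca-1, stood at 1004 reads under vehicle, 2102 under palbociclib and 1164 under ruxolitinib, a difference of 0.85 (-0.11 to 1.82) that did not pass either test. Against vehicle in the authors' deposited tables, Ly6a rose under palbociclib (1.07 ± 0.35, adjusted p = 0.0322) and stood at 0.21 ± 0.35 under ruxolitinib. Of markers of mature lineages, Cd3e, Cd8a, Ms4a1 and Ly6g had a base mean under 5, Cd4 one of 25.0 and Itgam of 205. Ly6c2, a monocyte and granulocyte surface marker, was more abundant and stood at 1744 reads under vehicle, 349 under palbociclib and 327 under ruxolitinib; in the authors' deposited tables it fell under both drugs (adjusted p = 0.0173 and 0.0258). Because these are bulk libraries, fewer cells of a type and less RNA per cell cannot be told apart.

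The D cyclins Ccnd1 and Ccnd2, whose products activate CDK4 and CDK6, were higher under palbociclib and had the smallest p of the palbociclib target pathway. Ccnd1, which encodes cyclin D1, stood at 2122 reads under vehicle (95% interval 1661 to 2711), 6693 under palbociclib (5243 to 8544) and 2792 under ruxolitinib (2185 to 3566). Its palbociclib interval lay above both others, and the difference of 1.26 ± 0.25 passed the direct contrast (adjusted p = 0.000325) but not the conservative test (adjusted p = 0.192). Ccnd2, cyclin D2, showed the same order at a higher level, with 13108 reads under vehicle, 22241 under palbociclib and 12817 under ruxolitinib, and a difference of 0.80 ± 0.17 (direct contrast, adjusted p = 0.00139; conservative, 0.339). For Ccnd3, cyclin D3, the difference of 0.31 ± 0.14 did not pass the direct contrast (adjusted p = 0.358). Cdkn2c, which encodes the CDK4/6 inhibitor p18, went the other way, with 2232 reads under vehicle, 1385 under palbociclib and 2402 under ruxolitinib. Its difference of -0.79 ± 0.21 passed the direct contrast (adjusted p = 0.0248) and not the conservative test (adjusted p = 1).

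These were the 3 direct calls among the 26 genes of the cyclin D, CDK4/6 and RB list, whose median difference was -0.036. The conservative test called 0 of the 26, with 3 at an unadjusted p under 0.05. The kinases themselves were not called: Cdk4 differed by -0.017 (conservative 95% interval -0.46 to 0.43) and Cdk6 by -0.12 (-0.66 to 0.43). Rb1, the pocket protein gene, differed by 0.11 (-0.40 to 0.62) and its relative Rbl1, which encodes p107, by -0.31 (-1.06 to 0.44). Among the E2F factors, E2f8, a repressor, had the largest difference below 0, -0.67 ± 0.25, and E2f5 the largest above, 0.72 ± 0.31, neither past the direct contrast (adjusted p = 0.225 and 0.337). Cdkn1c, which encodes the inhibitor p57, rose against vehicle under both drugs in the authors' deposited tables, by 1.46 ± 0.35 and 1.24 ± 0.35, and the drugs differed by 0.22 (-0.75 to 1.20).

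**Figure D2:**
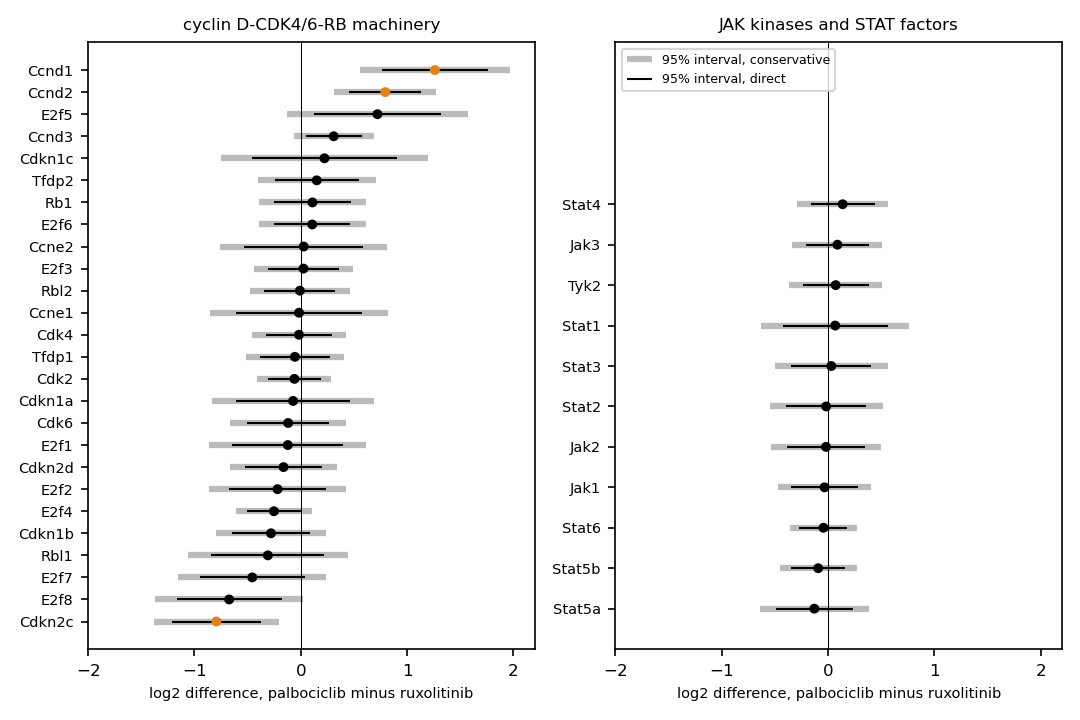
Difference between the drugs on the log2 scale for the 26 genes of the cyclin D, CDK4/6 and RB list (left) and the 11 JAK and STAT genes (right), with thick grey bars for the conservative and thin black bars for the direct 95% interval. Orange points passed the direct contrast: Ccnd1, Ccnd2 and Cdkn2c on the left and 0 genes on the right, where the points lie between -0.13 and 0.14.

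In the G2/M and mitosis list the palbociclib value was the lower one for all 70 members, with a median difference of -0.68 and a range of -1.03 to -0.09. Their median against vehicle in the authors' deposited tables was -0.83 under palbociclib and -0.08 under ruxolitinib, and 21 of the 70 fell under palbociclib while 0 passed under ruxolitinib there. Of single genes, Nek2 alone passed the direct contrast, at 2252 reads under vehicle, 1152 under palbociclib and 2222 under ruxolitinib, a difference of -0.95 ± 0.27 (adjusted p = 0.0398; conservative, 1). At an unadjusted p under 0.05, 10 members were counted by the conservative test and 49 by the direct contrast. The direct interval lay within 2-fold for 6 of the 70, so for most members a 2-fold difference was inside the interval. The members were read in the same 9 libraries and are not independent of each other.

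Mki67, the proliferation marker Ki-67, stood at 25286 reads under vehicle (95% interval 18417 to 34717), 10262 under palbociclib (7473 to 14092) and 20359 under ruxolitinib (14828 to 27954). The palbociclib interval did not overlap the others, and the difference of -0.99 ± 0.33 did not pass the direct contrast after adjustment (adjusted p = 0.132). Cdc20 stood at 4408 reads under vehicle, 2460 under palbociclib and 4205 under ruxolitinib, with a difference of -0.77 ± 0.24 (direct contrast, adjusted p = 0.0778). Kif22 differed by -0.92 ± 0.29 and Kif15 by -0.92 ± 0.29 (direct contrast, adjusted p = 0.0905 and 0.0995). Cenpe, a kinetochore motor, had the lowest palbociclib value of the list, -1.44 ± 0.41 over vehicle against -0.44 ± 0.41 for ruxolitinib in the authors' deposited tables.

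**Figure D3:**
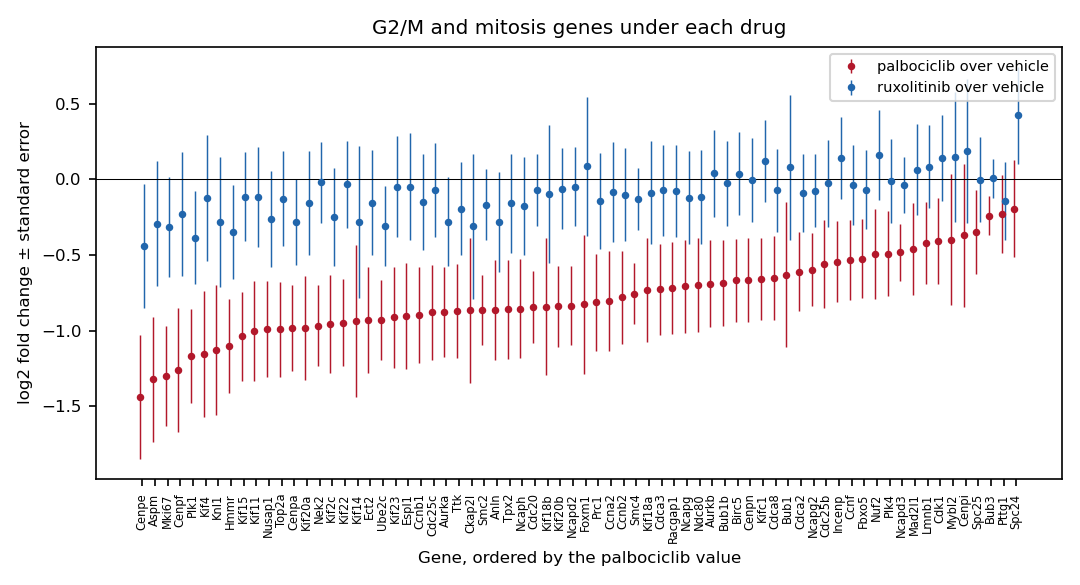
Log2 fold change over vehicle with its deposited standard error for the 70 G2/M and mitosis genes, ordered by the palbociclib value, in red for palbociclib and blue for ruxolitinib. The red point lies below the blue one for every gene, with medians of -0.83 and -0.08, and many of the error bars overlap.

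The S phase genes had a median closer to 0. Of 56 members, 53 lay below 0 and 3 above, with a median difference of -0.22 against -0.0048 over all genes. Neither test called any of the 56; at an unadjusted p under 0.05 the conservative test counted 0 and the direct contrast 6. Rrm1, a subunit of ribonucleotide reductase, stood at 15092 reads under vehicle, 10119 under palbociclib and 14988 under ruxolitinib (-0.57 ± 0.21; direct contrast, adjusted p = 0.239). Clspn, a replication checkpoint adaptor, differed by -0.60 ± 0.27 (adjusted p = 0.377). Nucleolar ribosome biogenesis genes lay below 0 for 38 of 40 members, with a median of -0.17 and 0 calls by either test; the direct contrast counted 2 and the conservative test 0 at an unadjusted p under 0.05. Outside both lists, Mxd3, a partner of MAX expressed in cycling cells, was lower under palbociclib, 130.3 against 302 reads (-1.21 ± 0.32; direct contrast, adjusted p = 0.019). Recql4, a replication helicase also outside both lists, was lower as well, 527 against 999.8 reads (-0.92 ± 0.24; direct contrast, adjusted p = 0.0189). Both were named for the size of their differences.

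No gene of the JAK and STAT list, the pathway that ruxolitinib inhibits, was called. All 11 JAK and STAT genes lay between -0.13 and 0.14, with a median of -0.018, and their conservative intervals all lay within 2-fold. Jak1 differed by -0.033 (-0.47 to 0.41) and Jak2 by -0.02 (-0.54 to 0.50), and neither test called any of the 11, also at an unadjusted p under 0.05 (0 by both tests). Stat5a and Stat5b, the factors most used by blood cytokine receptors, differed by -0.13 (-0.64 to 0.38) and -0.093 (-0.46 to 0.27).

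Feedback genes and other STAT5 targets gave a median of 0.05 over 25 members, from -0.37 to 1.01, with 0 calls by either test and 1 gene at an unadjusted p under 0.05 in each. That gene was Ptpn1, a phosphatase that acts on JAK kinases, at 3313 reads under vehicle, 2270 under palbociclib and 2933 under ruxolitinib (-0.37 ± 0.12; direct contrast, adjusted p = 0.0857). Cish, a SOCS-family inhibitor switched on by STAT5, stood at 394 reads under vehicle, 514 under palbociclib and 361 under ruxolitinib, and its conservative interval of -0.64 to 1.67 takes in a difference of more than 2-fold. Pim2, a survival kinase and STAT5 target, had the largest difference, 1.01 ± 0.62, with an adjusted p of 0.602 in the direct contrast.

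The 26 cytokine receptor genes had a median of 0.08, and neither test called any; the conservative test counted 1 and the direct contrast 2 at an unadjusted p under 0.05. Csf3r, the receptor of granulocyte colony-stimulating factor, differed by 0.55 ± 0.18 (direct contrast, adjusted p = 0.114), Epor by 0.23 and Flt3 by -0.41. In the authors' deposited tables, 10 of the 26 fell under palbociclib and 7 under ruxolitinib.

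Signalling targets further down were called in 1 case. The 11 ERK feedback genes had a median of 0.23, the 16 AP-1 and immediate early genes -0.06 and the 19 TNF and NF-kB targets 0.07, and neither test called any of these. At an unadjusted p under 0.05 the direct contrast counted 1, 3 and 0 of them and the conservative test 0, 0 and 0. Jun, an AP-1 subunit, stood at 589 reads under vehicle, 160.4 under palbociclib and 559.7 under ruxolitinib, but its error was large (-1.80 ± 0.90; direct contrast, adjusted p = 0.467). Interferon response genes were above 0 for 33 of 47 members, with a median of 0.24. Isg15, a ubiquitin-like interferon-induced protein, stood at 109 reads under vehicle (95% interval 82.7 to 144), 270.1 under palbociclib (207 to 353) and 129 under ruxolitinib (98 to 170.2) and was the 1 direct call (1.06 ± 0.28; adjusted p = 0.0217; conservative, 1).

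The 7 largest differences above 0 among the direct calls were all in mature neutrophil genes. Of 29 genes listed, 16 reached the base mean limit, and 11 of these 16 were higher under palbociclib by the direct contrast, with 1, Cxcr2, also called by the conservative test. Some of the 16 reach a mean of 50 only through the group in which they are high, so this count and the median of 4.75 describe those 16 and not the whole list; with the limit set to 10 the median was 3.57, and with it set to 500 it was 0.28. Ltf, which encodes the granule protein lactoferrin, stood at 6.35 reads under vehicle (95% interval 1.5 to 26.8), 1563 under palbociclib (394 to 6194) and 6.42 under ruxolitinib (1.51 to 27.3). Its palbociclib interval lay far above both others, which overlapped, and the difference was 7.93 ± 1.47 (direct contrast, adjusted p = 4.37e-05; conservative, 0.0996). S100a9, a subunit of the calprotectin alarmin, stood at 47.3 reads under vehicle (95% interval 11.2 to 200.1), 1433 under palbociclib (342 to 6008) and 11.9 under ruxolitinib (2.75 to 52), again with the palbociclib interval above the others (6.91 ± 1.51; direct contrast, adjusted p = 0.00142).

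Further granule and alarmin genes were higher under palbociclib than under ruxolitinib at a direct adjusted p under 0.05. Chil3, a chitinase-like protein, gave 792 against 4.39 reads and Mmp9, a gelatinase, 391 against 2.57 reads. Ngp, a neutrophil granule protein, gave 1537 against 11 reads, Camp, the cathelicidin precursor, 330.1 against 3.56 reads, and Cd177, a neutrophil surface protein, 286 against 4.81 reads. For these 5 the palbociclib interval also lay above that of vehicle. S100a8, the partner of S100a9, stood at 108 reads under vehicle (95% interval 32.8 to 355), 845 under palbociclib (258 to 2769) and 28 under ruxolitinib (8.39 to 93.5). Lcn2, the siderophore-binding lipocalin, stood at 183 reads under vehicle (95% interval 60.9 to 552), 607 under palbociclib (202 to 1824) and 25.4 under ruxolitinib (8.27 to 78). For both genes the palbociclib interval overlapped that of vehicle, and neither passed for palbociclib against vehicle in the authors' deposited tables (adjusted p = 0.115 and 0.395). The other 5 of the 16, Padi4, Ltb4r1, Adam8, Mxd1 and Anxa1, did not pass; their differences ran from -0.023 for Anxa1 to 0.997 for Adam8, with direct adjusted p from 0.203 to 0.987. Summed over the 24 genes of the mature neutrophil list with a level, the groups stood at 7671 reads under vehicle, 16430 under palbociclib and 6053 under ruxolitinib. Ly6g, the surface marker of mature neutrophils, had a base mean of 4.09 and was not tested. Its deposited log2 fold change over vehicle was 7.0 ± 2.8 under palbociclib and 0 ± 3.0 under ruxolitinib, both without an adjusted p. The part of mature cells or of 1 library in these values was not tested.

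Cxcr2, the neutrophil chemokine receptor, a protein-coding gene at chr1:74153989-74161246 on the plus strand of GRCm38, followed another pattern, since its level was 531 reads under vehicle (95% interval 366 to 769), 658 under palbociclib (454 to 953) and 142 under ruxolitinib (96.9 to 207). Here palbociclib and vehicle overlapped and ruxolitinib lay below both, and the difference of 2.22 ± 0.55 passed the conservative test (adjusted p = 0.0383). In the authors' deposited tables it fell under ruxolitinib, with a log2 fold change of -1.91 ± 0.39 (adjusted p = 0.000405) and stood at 0.31 ± 0.39 under palbociclib. Pglyrp1, a peptidoglycan-binding granule protein, was lowest under ruxolitinib as well, 457 reads under vehicle, 471 under palbociclib and 206 under ruxolitinib (1.19 ± 0.34; direct contrast, adjusted p = 0.0441). Slpi, a secreted inhibitor of neutrophil elastase, was also lowest under ruxolitinib, at 575 reads under vehicle, 438 under palbociclib and 148 under ruxolitinib (1.57 ± 0.44; direct contrast, adjusted p = 0.0373).

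Of the earlier granule genes, 1 was called between the drugs. The 22 neutrophil progenitor genes had medians of -1.15 under palbociclib and -1.16 under ruxolitinib in the authors' deposited tables, where 12 and 11 of them fell and 2 and 0 rose. Their median difference was 0.01, and the direct 95% interval lay within 2-fold for 14 of the 22. Mpo, myeloperoxidase, stood at 98091 reads under vehicle, 25825 under palbociclib and 32065 under ruxolitinib, a difference of -0.31 (conservative 95% interval -1.57 to 0.95). Elane, neutrophil elastase, stood at 9951 reads under vehicle, 975 under palbociclib and 2067 under ruxolitinib, and its difference of -1.08 ± 0.65 did not pass (direct contrast, adjusted p = 0.595). The 1 direct call of the list was Srgn, serglycin, a granule proteoglycan shared with mast cells, at 17397 reads under vehicle, 21571 under palbociclib and 15850 under ruxolitinib (0.44 ± 0.11; adjusted p = 0.0062).

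Lyz2, the macrophage and granulocyte lysozyme, a protein-coding gene at chr10:117277331-117282321 on the minus strand of GRCm38, was higher under palbociclib and had the smallest p of the monocyte list. Its level was 2953 reads under vehicle (95% interval 2484 to 3510), 6468 under palbociclib (5444 to 7685) and 2838 under ruxolitinib (2387 to 3375), with palbociclib above both others, and the difference of 1.19 ± 0.25 passed the conservative test (adjusted p = 0.00357). It was the 1 call by either test among 32 monocyte and dendritic cell genes, 17 of which lay above 0 and 15 below, with a median of 0.05. In the authors' deposited tables, 13 of the 32 fell under palbociclib and 14 under ruxolitinib. Irf8, the factor that directs monocyte and dendritic fate, stood at 3804 reads under vehicle, 952 under palbociclib and 1770 under ruxolitinib (-0.90 ± 0.30; direct contrast, adjusted p = 0.144). Ccl9, a myeloid chemokine, had the opposite order, 5065 reads under vehicle, 3402 under palbociclib and 1908 under ruxolitinib (0.83 ± 0.27; adjusted p = 0.114).

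**Figure D4:**
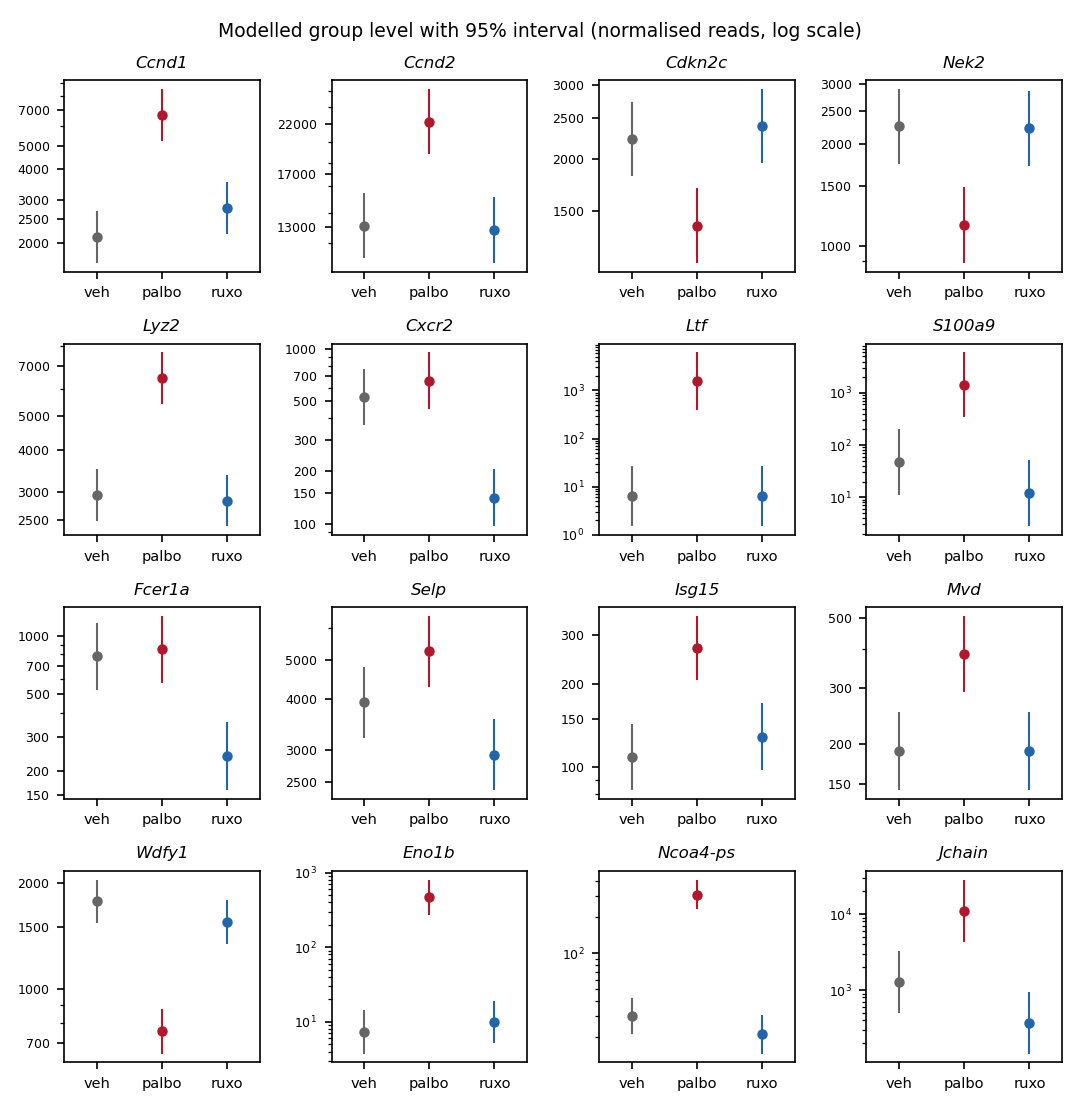
Modelled group level with its 95% interval in normalised reads (log scale, a separate range per panel) under vehicle (veh), palbociclib (palbo) and ruxolitinib (ruxo) for 16 genes. Palbociclib stands apart from both other groups for genes such as Ccnd1, Lyz2 and Wdfy1, whereas for Cxcr2 and Fcer1a ruxolitinib lies below both.

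Mast cell, basophil and eosinophil genes were above 0 for 16 of the 17 at the limit, with a median of 0.53, and 4 passed the direct contrast and 0 the conservative test (4 at an unadjusted p under 0.05). Fcer1a, the alpha chain of the IgE receptor, stood at 782 reads under vehicle (95% interval 525 to 1166), 849.5 under palbociclib (569.8 to 1266) and 238 under ruxolitinib (159 to 356), so that ruxolitinib lay below both other groups (1.84 ± 0.42; direct contrast, adjusted p = 0.00268). Cpa3, the mast cell carboxypeptidase, had the same order, 2225 reads under vehicle, 2156 under palbociclib and 1237 under ruxolitinib (0.80 ± 0.23; adjusted p = 0.0494). Gzmb, granzyme B, stood at 192 reads under vehicle, 364 under palbociclib and 158 under ruxolitinib (1.20 ± 0.35; adjusted p = 0.0492), with palbociclib highest and its interval touching that of vehicle. In the authors' deposited tables, 4 of the 17 fell under palbociclib and 6 under ruxolitinib.

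Erythroid genes were above 0 for 36 of 37, at a median of 0.61, with medians of -0.56 under palbociclib and -1.15 under ruxolitinib against vehicle in the authors' deposited tables, where 4 and 10 fell. Their errors were large, and neither test called any; the direct contrast counted 5 at an unadjusted p under 0.05 and the conservative test 0. Slc4a1, the band 3 anion exchanger of red cells, stood at 101 reads under vehicle, 467 under palbociclib and 88 under ruxolitinib (2.41 ± 1.08; direct contrast, adjusted p = 0.377). Gata1, the master factor of the lineage, differed by 0.24 (-0.44 to 0.92) and Klf1 by 0.44 (-1.07 to 1.96). Tfrc, the transferrin receptor, was the member below 0, at -0.51.

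Stem cell genes were above 0 for 34 of 38, with a median difference of 0.41, and in the authors' deposited tables, 17 of them rose under palbociclib and 5 under ruxolitinib. The difference itself was called for 0 of the 38 by either test, with 10 at an unadjusted p under 0.05 in the direct contrast and 1 in the conservative test. Neo1, a receptor of netrins, stood at 27.9 reads under vehicle, 341 under palbociclib and 73.2 under ruxolitinib (2.22 ± 0.84; direct contrast, adjusted p = 0.236). Vwf, carried by platelet-biased stem cells and megakaryocytes, stood at 1250 reads under vehicle, 4666 under palbociclib and 1263 under ruxolitinib (1.89 ± 0.75; adjusted p = 0.281). Megakaryocyte and platelet genes were above 0 for 23 of 24, with a median of 0.45. Selp, P-selectin, was the 1 direct call of that list, at 3931 reads under vehicle (95% interval 3213 to 4810), 5251 under palbociclib (4292 to 6423) and 2922 under ruxolitinib (2388 to 3576) (0.85 ± 0.21; adjusted p = 0.01), with vehicle between the drugs.

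**Figure D5:**
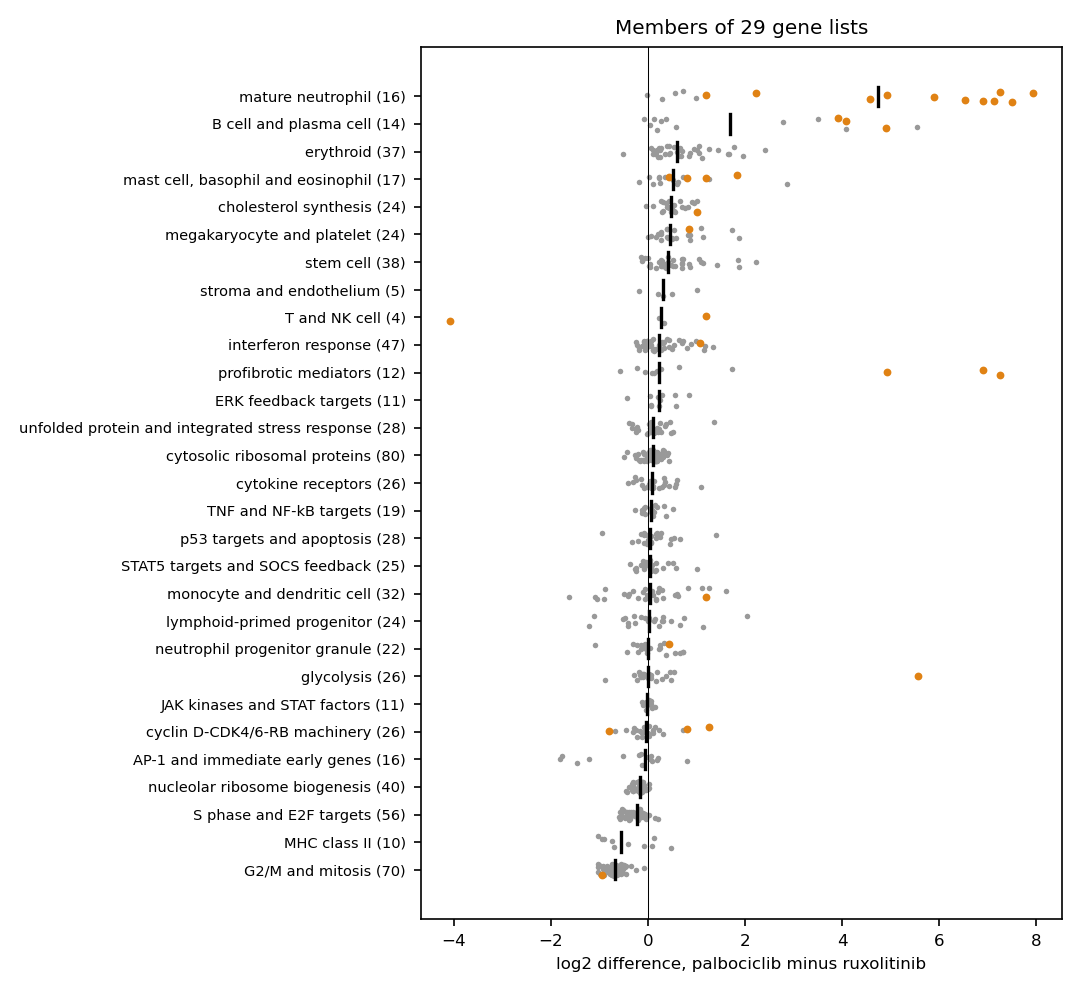
Difference between the drugs on the log2 scale for the members of 29 gene lists, 1 point per gene, with the list median as a black bar, the number of members in brackets and direct calls in orange. Medians run from -0.68 for the G2/M list to 4.75 for mature neutrophil genes.

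Sterol synthesis genes were above 0 for 23 of 24, with a median difference of 0.48, and medians of 0.53 under palbociclib and 0.03 under ruxolitinib against vehicle in the authors' deposited tables. In those tables, 7 of the 24 rose under palbociclib and 0 changed under ruxolitinib. Mvd, mevalonate diphosphate decarboxylase, stood at 191 reads under vehicle (95% interval 144 to 253), 384 under palbociclib (291 to 507) and 191 under ruxolitinib (144 to 253) and was the 1 direct call (1.01 ± 0.29; adjusted p = 0.0467; conservative, 1). At an unadjusted p under 0.05 the direct contrast counted 15 of the 24 and the conservative test 4. Fads2, a fatty acid desaturase outside the list, was higher under palbociclib, 3992 against 2622 reads (0.61 ± 0.16; direct contrast, adjusted p = 0.0278).

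The remaining lists held few calls. Glycolysis genes had a median of 0.01 over 26 members, p53 and apoptosis genes 0.05 over 28, unfolded protein and stress response genes 0.11 over 28, and lymphoid-primed progenitor genes 0.02 over 24. Cytosolic ribosomal protein genes had a median of 0.10, with 63 of 80 above 0. MHC class II genes had a median of -0.55 over 10 members, among them H2-Ab1 at 2258 reads under vehicle, 2167 under palbociclib and 3643 under ruxolitinib (-0.75 ± 0.31; direct contrast, adjusted p = 0.312). Apart from the glycolysis list, which holds Eno1b, neither test called a member of these lists. At an unadjusted p under 0.05 the conservative test counted 1 ribosomal protein gene and 0 genes of the p53, stress response, lymphoid-primed and MHC class II lists, and the direct contrast counted 2 ribosomal protein, 2 p53, 3 stress response, 2 lymphoid-primed and 4 MHC class II genes. Stroma and endothelium genes had a median of 0.32 over 5 members and 0 calls by either test or at an unadjusted p under 0.05. Of 27 profibrotic mediators listed, 12 reached the base mean limit, with a median of 0.23. Mmp9, S100a9 and S100a8 passed the direct contrast, all of which are also mature neutrophil genes. Mmp9 and S100a9 lay under the limit of 50 in vehicle and ruxolitinib and reached it through groups in which they are high. The count therefore describes those 12 and not the whole list.

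Outside the lists, Ddit4, which restrains mTORC1, stood at 456 reads under vehicle (95% interval 349 to 595), 1226 under palbociclib (941 to 1596) and 421 under ruxolitinib (322 to 549.9) (1.54 ± 0.28; direct contrast, adjusted p = 1.62e-05; conservative, 0.0561). Fbp1, a gluconeogenic phosphatase, stood at 218 reads under vehicle, 875 under palbociclib and 225 under ruxolitinib (1.96 ± 0.38; direct contrast, adjusted p = 0.00013). Fn1, the matrix protein fibronectin, stood at 53.1 reads under vehicle, 333 under palbociclib and 79.2 under ruxolitinib (2.07 ± 0.58; adjusted p = 0.0359). In all 3 of these genes the palbociclib level was the highest. Mxd4, an antagonist of MYC, and Pik3ip1, an inhibitor of phosphoinositide 3-kinase, were highest under palbociclib and lowest under ruxolitinib. They stood at 3217 reads under vehicle, 4054 under palbociclib and 2038 under ruxolitinib for Mxd4 (0.99 ± 0.28; adjusted p = 0.037). For Pik3ip1 they were 1630 reads under vehicle, 2068 under palbociclib and 1088 under ruxolitinib (0.93 ± 0.26; adjusted p = 0.0356).

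Wdfy1, an endosomal adaptor of Toll-like receptors, a protein-coding gene at chr1:79702262-79776143 on the minus strand of GRCm38, was the 1 conservative call higher under ruxolitinib that is not Y-linked. It stood at 1775 reads under vehicle (95% interval 1537 to 2050), 756 under palbociclib (652 to 876) and 1549 under ruxolitinib (1340 to 1790), with palbociclib below both others, and the difference was -1.04 ± 0.21 (conservative test, adjusted p = 0.00156). In the authors' deposited tables it fell under palbociclib, with a log2 fold change of -1.23 ± 0.15, and stood at -0.20 ± 0.15 under ruxolitinib. Under both drugs together it stood at -1.12 ± 0.15 in the authors' deposited table. Among direct calls, Tpm4, a tropomyosin, gave 828 against 1413 reads (-0.77 ± 0.22; adjusted p = 0.0383). Hfe, a regulator of iron uptake, gave 149 against 277 reads (-0.89 ± 0.26; adjusted p = 0.0492), and Hnrnpdl, an RNA-binding protein, 7850 against 13043 reads (-0.73 ± 0.20; adjusted p = 0.0302).

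The remaining conservative calls higher under palbociclib were a near copy of a gene and processed pseudogenes. Eno1b, a near copy of the glycolytic enzyme gene Eno1, stood at 7.36 reads under vehicle (95% interval 3.74 to 14.5), 464 under palbociclib (267 to 805) and 9.88 under ruxolitinib (5.13 to 19) (5.55 ± 0.94; conservative test, adjusted p = 1.29e-05). Ncoa4-ps, a processed pseudogene of the ferritin receptor gene Ncoa4, stood at 30.1 reads under vehicle (95% interval 21.4 to 42.3), 306 under palbociclib (230.3 to 408) and 21.1 under ruxolitinib (14.6 to 30.6) (3.86 ± 0.49; conservative test, adjusted p = 8.06e-11). The processed pseudogene Gm4735 stood at 33.3 reads under vehicle, 439.8 under palbociclib and 36.6 under ruxolitinib (3.59 ± 0.58; conservative test, adjusted p = 3.98e-06). Eno1 stood at 13690 reads under vehicle, 10428 under palbociclib and 12656 under ruxolitinib, a difference of -0.28 (-0.83 to 0.27), and Ncoa4 differed by 0.022 (-0.71 to 0.75); neither passed. Near-identical copies can share reads, so the values of these copies are uncertain. Under both drugs together the authors' deposited table gives 5.92 ± 0.64 for Eno1b and 3.87 ± 0.33 for Ncoa4-ps, beside palbociclib values of 5.98 ± 0.64 and 3.35 ± 0.33 in the authors' deposited table.

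Transcripts best known from B, plasma and T cells, and those of the Y chromosome, also moved with the groups. The cells they came from were not identified. Immunoglobulin segments, which were left out of the tests, together with Jchain held 0.086% of the reads in genes under vehicle, 0.483% under palbociclib and 0.0249% under ruxolitinib. Jchain, the joining chain of secreted antibodies, stood at 1264 reads under vehicle (95% interval 494 to 3230), 11105 under palbociclib (4346 to 28372) and 373 under ruxolitinib (146 to 954) (4.90 ± 0.98; direct contrast, adjusted p = 0.000291). Of 24 B and plasma cell genes, 14 reached the limit, and Jchain, Pou2af1 and Irf4 passed the direct contrast. The base mean also covers the group given both drugs, in which Pou2af1 and Irf4 were highest, at 5.63 ± 0.91 and 4.96 ± 1.1 on the log2 scale over vehicle in the authors' deposited table. Mzb1 and Tnfrsf17 reached the limit with levels under it in each of the 3 groups described here, so the count is one of those 14 genes and not of the whole list. The summed level of the 19 genes with a level was 9082 reads under vehicle, 20230 under palbociclib and 7402 under ruxolitinib; without Jchain the other 18 summed to 7819, 9130 and 7029 reads. Il2, a T cell cytokine, stood at 179 reads under vehicle, 22.7 under palbociclib and 385 under ruxolitinib (-4.08 ± 0.97; direct contrast, adjusted p = 0.00557). Of 22 T and NK cell genes, 4 reached the limit, and Il2 and Gzmb passed the direct contrast in opposite directions. The T cell surface markers Cd3e and Cd8a had base means of 1.005 and 0.442. Without Nkg7, the highest of the list, the other 8 genes with a level summed to 1296 reads under vehicle, 1776 under palbociclib and 1745 under ruxolitinib. The part of such cells in these and the other results was not tested.

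Of 9 sex-linked genes, the 4 on the Y chromosome passed the conservative test, all higher under ruxolitinib. Ddx3y stood at 422 reads under vehicle, 4.03 under palbociclib and 1114 under ruxolitinib, Uty at 160.0 reads under vehicle, 1.73 under palbociclib and 372 under ruxolitinib and Eif2s3y at 274 reads under vehicle, 4.4 under palbociclib and 685 under ruxolitinib. Kdm5d stood at 225 reads under vehicle, 0.711 under palbociclib and 499 under ruxolitinib. The palbociclib level lies under the floor of 3 reads over the group. With the floor in its place, it was 479-fold lower than the ruxolitinib level. The direct 95% interval of the Kdm5d difference ran from -12.3 to -6.6 on the log2 scale. Xist, which marks the inactive X chromosome, stood at 42253 reads under vehicle, 66653 under palbociclib and 42338 under ruxolitinib, with a difference of 0.65 ± 0.79 that did not pass (direct contrast, adjusted p = 0.85). In the authors' deposited tables, the log2 fold change of Kdm5d over vehicle was -8.3 under palbociclib, 1.2 under ruxolitinib and -8.3 under both drugs. In the same order, Ddx3y stood at -6.7, 1.4 and -8.8, Uty at -6.5, 1.2 and -7.9 and Eif2s3y at -6.0, 1.3 and -6.5. The labels used here give no sex, and the part of sex-linked differences in the other results was not tested. Without sex-linked genes and the mature neutrophil and B and plasma cell lists, the direct contrast called 65 genes higher under palbociclib and 20 higher under ruxolitinib, an alternative added after the data were seen.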

How the data were processed

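PolyA RNA of sorted LSK cells was sequenced in 12 libraries, 3 a group; 9 bear on this comparison. Per the submitters' processing notes, the authors' tools were HISAT2 2.0.1, featureCounts 2.0.0, fastp 0.20.0, SAMtools 1.10 and DESeq2, on the build GRCm38; settings are not given in the sources used here. The base mean is a signal the authors deposited, a mean of normalised counts over their fit, which by the solved size factors held 24 libraries, these 12 and 12 others. Each log2 fold change and error is the authors' deposited DESeq2 estimate, without shrinkage. The Wald score is deposited by the authors and was not used in the tests. The deposited p-value is the authors' own, and a gene without an adjusted p in both tables was not tested.

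Differences, errors, size factors and group levels were computed from these tables in Python 3.11.15 (numpy 2.4.6, pandas 2.3.3, scipy 1.17.1, matplotlib 3.10.9). Vehicle level and dispersion were solved for each gene from the 3 deposited errors, met within 1e-04 of them for all 11939 genes. Both tests are 2-sided normal tests of the difference over its error. Intervals and the floor of 3 reads a group cover modelled spread and counting error alone. Gene types came from GENCODE mouse release 21 and promoters from RefSeq.

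On simulated data for this comparison with 11933 genes, 200 of them changed, and dispersions taken as known, the conservative test found 55% of 2-fold and 91% of 4-fold changes with 0 false calls of 146. The direct contrast found 77% and 97%, with 4 false of 178 calls (2.25%).

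Gene lists and the genes compared were chosen with earlier results of these data known. Named genes were, per direction, the 10 largest differences and 5 largest statistics among calls with an ordinary symbol, without immunoglobulin and sex-linked genes, the 4 smallest p of each list, all sort genes and the drug targets. The same rule was applied to the direct contrast after the data were seen, and further members were named after their values were seen. Alternatives were another error, base mean limits, the adjustment, centring and the threshold. Some results are not reported here.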

Additional observations from a re-analysis of the deposited data

How the results depend on the processing

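The counts depended on how the error of the difference was taken. Against 5 genes called in each direction, a correlation of 0.5 between the estimates gave 84 higher under palbociclib and 26 higher under ruxolitinib, and the direct contrast 79 and 24; the direct contrast without sex-linked, mature neutrophil and B and plasma cell genes gave 65 and 20. A base mean of at least 500 left 1 and 2. Higher under ruxolitinib, an adjusted p under 0.01 left 3 and leaving out sex-linked genes left 1. Cxcr2 and Eif2s3y lost their conservative call when p-values were adjusted over these 11933 genes alone or over every gene with an error. Both also lost it at an adjusted p under 0.01, as did Ddx3y. The other adjustments were applied to the conservative test only. The direct contrast was adjusted over all 15448 genes, 3515 of them under the base mean limit or immunoglobulin segments. Several direct calls lay near the threshold, such as Nek2 (direct adjusted p = 0.0398), Mvd (0.0467) and Cpa3 (0.0494). Whether such calls pass when adjusted over the 11933 genes alone was not tested. List medians moved with the base mean limit. With the limit at 10, that of the mature neutrophil list was 3.57, of the B and plasma cell list 1.37, of stroma and endothelium 0.56, of profibrotic mediators 0.59 and of the sort genes 0.32. With the limit at 500, the lymphoid-primed median turned from 0.02 to -0.14, and the mature neutrophil median was 0.28, the B and plasma cell 0.28, the interferon 0.067, the erythroid 0.43, the stroma and endothelium 0.0080 and the MHC class II -0.69; each limit changes which members enter. Centring on the median difference changed no conservative call. The other alternatives leave the difference of each gene as it is, so they could not change its sign. No paired analysis was possible because the deposited tables hold group comparisons and no value of a numbered library. For the same reason leaving out each library in turn was not run, so whether 1 library carries a value is not known here. With 3 libraries a group, the conservative test found 55% of simulated 2-fold differences.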

Other observations

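Several direct calls not described above concern surface and metabolic genes. Ackr1, the atypical chemokine receptor that carries the Duffy antigen, stood at 46 reads under vehicle, 111 under palbociclib and 23.1 under ruxolitinib (2.26 ± 0.66; direct contrast, adjusted p = 0.0487). Islr, a protein with leucine-rich repeats, stood at 47.4 reads under vehicle, 172 under palbociclib and 34.1 under ruxolitinib (2.34 ± 0.52; adjusted p = 0.00164). Ucp2, a mitochondrial carrier, was abundant in every group, at 12920 reads under vehicle, 17132 under palbociclib and 10726 under ruxolitinib (0.68 ± 0.17; adjusted p = 0.00864). Cfp, the complement factor properdin, stood at 547 reads under vehicle, 1063 under palbociclib and 462 under ruxolitinib (1.20 ± 0.34; adjusted p = 0.0449).

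The 10 direct calls that passed for ruxolitinib only in the authors' deposited tables all fell against vehicle, and 5 of them are not described above. Ly6a2, a transcribed pseudogene of the Ly6 family that may share reads with its relatives, stood at 90.0 reads under vehicle, 94.6 under palbociclib and 14.6 under ruxolitinib (2.70 ± 0.68; direct contrast, adjusted p = 0.0118). Pkhd1l1 stood at 80.1 reads under vehicle, 67.7 under palbociclib and 9.18 under ruxolitinib (2.88 ± 0.80; adjusted p = 0.0336) and Ypel2 at 427 reads under vehicle, 513 under palbociclib and 197 under ruxolitinib (1.38 ± 0.28; adjusted p = 0.000426). Trp53inp2 stood at 60.2 reads under vehicle, 79.3 under palbociclib and 29.4 under ruxolitinib (1.43 ± 0.32; adjusted p = 0.0023) and Mocos, the molybdenum cofactor sulfurase, at 88.3 reads under vehicle, 121 under palbociclib and 32.7 under ruxolitinib (1.89 ± 0.43; adjusted p = 0.00273). These 9 genes were named after their values were seen.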
